A study of Mus musculus with 14 samples.

Results

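The nuclear genes of oxidative phosphorylation were followed in mouse aorta and in CD115+ blood cells, with and without the lymphotoxin beta receptor. A gene was taken when its symbol began with Ndufa, Ndufb, Ndufc, Ndufs, Ndufv, Sdh, Uqcr or Atp5, or with Cox and a digit from 4 to 8. This gave 93 genes, measured by 103 probe sets, of the 22180 genes with a probe set of a single symbol. Of these, 34 were counted with complex I, 4 with complex II, 7 with complex III, 16 with complex IV and 17 with ATP synthase, 78 subunits in all. The 34 include, by name only, the complex IV subunit Ndufa4 and its relative Ndufa4l2. Another 13 are assembly factors or relatives (Ndufaf1 to Ndufaf8, Sdhaf1 to Sdhaf4 and Cox7a2l), and 2 are listed as pseudogenes (Atp5c1-ps and Uqcrh-ps1). A further 10 probe sets of such genes carried several symbols and were left out, which removed Uqcr10, Ndufs6, Cox6c, Ndufb4 and Ndufb2 from the set.

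Oxidative phosphorylation takes place at the inner mitochondrial membrane. Complex I (NADH dehydrogenase) and complex II (succinate dehydrogenase, also an enzyme of the citrate cycle) pass electrons to ubiquinone, complex III passes them on to cytochrome c, and complex IV (cytochrome c oxidase) hands them to oxygen. Complexes I, III and IV pump protons as they do so, and ATP synthase lets the protons return to make ATP. Most subunits are encoded in the nucleus and a few core ones in mitochondrial DNA. Brown fat, which surrounds parts of the mouse aorta, and heart and skeletal muscle are rich in mitochondria, and complex IV has subunit isoforms found mainly in such tissues.

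All mice were males without apolipoprotein E (ApoE), whose remnant particles accumulate in plasma, and ate a Western type diet for 4 weeks from the age of 8 weeks, so that they were 12 weeks old. The control group lacked ApoE alone (apoE-/-, titled WT), and the other group lacked the lymphotoxin beta receptor as well (ApoE/LTbR double-deficient, apoE-/-LTbR-/-, titled KO). No group on normal diet or with intact ApoE was analysed here. The aorta, homogenised together with its perivascular fat, came from 4 double-deficient and 4 ApoE-deficient samples. CD115+ cells, which bear the receptor for colony-stimulating factor 1 as blood monocytes do, were taken from blood with magnetic beads, giving 3 preparations per genotype. In the ApoE-deficient CD115+ group, each of replicates 3 and 4 pooled RNA from 2 littermates. Each array was hybridised with cDNA amplified from 1 ng of RNA. The labels name the controls littermates but do not say which samples shared a litter, nor if one animal gave both tissues. The p-values measure the spread between these samples.

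Values are log2 signals that the authors had centred on the median of each probe set within a tissue. A value of 0.10 therefore means a signal 0.10 log2 units above that gene's median over the arrays of the tissue. On this scale no gene's level can be set against another gene's, nor a tissue's against the other's. From the rounding step left in the stored numbers, only the sign of a signal at or above 8 log2 units was used. Lack of this sign does not show a low signal, as it covers signals of 4 to 8 on some array and unclear ones. By that sign 65 of the 93 genes had such a signal in aorta and 54 in CD115+ cells, against 12.9% and 8.63% of all genes. The targeted gene Ltbr stood at -0.98, -1.10, -1.29 and -0.49 in the double-deficient aortas and at 0.63, 0.49, 0.70 and 0.89 in the ApoE-deficient ones. In CD115+ cells Ltbr stood at -0.07, -0.62 and -0.44 against 0.55, 0.07 and 0.40. Its groups did not overlap in either tissue, although limma's adjusted p was 0.068 in aorta and 0.976 in CD115+ cells. Which part of Ltbr its probes cover is not given in the sources used here.

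The cell types named by the labels were checked against marker lists. In aorta 6 of 11 smooth muscle markers (among them Acta2, Myh11 and Tagln) and 9 of 11 adipocyte markers were at or above 8 log2 units. In the CD115+ preparations 5 of 12 blood monocyte markers were (Ccr2, Cx3cr1, Nr4a1, Treml4 and Lyz2), together with 9 of 11 adipocyte markers (among them Adipoq, Plin1 and Fabp4), 4 of 11 smooth muscle markers and 3 of 10 brown adipocyte markers (Ucp1, Cidea and Cox8b). For comparison, 36 of 1394 olfactory and vomeronasal receptor genes (2.58%) were at or above 8 in CD115+ cells. Csf1r, the gene of CD115 itself, was at or above 8 in aorta but did not show that sign in CD115+ cells. High signal of adipocyte and smooth muscle markers in preparations labelled as blood cells stands beside every value given for them.

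In the aorta the differences between genotypes were small and lay on both sides of 0. By limma with Benjamini-Hochberg adjustment 0 of 93 passed an adjusted p of 0.05 (smallest 0.535), as did 1 of all 22180 genes (0.00451%). Unadjusted, 2 of the 93 had a limma p under 0.05, 1 higher and 1 lower, against 7.72% of all genes in either direction, 3.91% higher and 3.81% lower. Of the 93 differences 50 were above 0 and 43 below, a share close to the 52.8% above 0 among all genes. Their median was 0.02 log2 units (all genes 0.01), and 80 were smaller than 0.25 in size. Standard errors ran from 0.06 to 0.80, with a median of 0.13.

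CD115+ cells also gave 0 of 93 genes past the adjusted threshold (smallest limma adjusted p 0.976), as for all genes (0%). Here, however, 82 of the 93 genes were lower in double-deficient cells, against 55.3% of all genes. The median difference was -0.08 log2 units (all genes -0.01), and 86 of 93 were smaller than 0.25 in size. Unadjusted, limma gave 3 genes a p under 0.05, all lower (Cox6b2, Ndufa4l2 and Ndufa7), against 2.33% of all genes lower and 4.39% in either direction. In both tissues RNA of bulk samples was measured, where fewer cells of a type and less RNA per cell cannot be told apart.

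The genes stood high or low together on single arrays of both genotypes. In aorta the median over the 93 genes was -0.01, 0.03, -0.18 and 0.08 in double-deficient replicates 1 to 4 and -0.17, -0.16, 0.16 and 0.05 in ApoE-deficient replicates 1 to 4. Above 0 stood 39, 69, 8 and 77 of the 93 genes in the former and 11, 12, 88 and 68 in the latter. Double-deficient replicate 3 and ApoE-deficient replicates 1 and 2 were the low arrays, ApoE-deficient replicate 3 was the high one, and the groups overlapped. Lymphocyte markers also varied between the aortas. B cell markers had medians of -0.27, -0.26, -0.18 and -0.18 in the double-deficient and of 2.20, 2.29, -0.19 and 1.37 in the ApoE-deficient aortas, and T cell markers of -0.13, -0.38, -0.54 and -0.72 against 0.92, 0.74, 0.01 and 0.50. By unadjusted limma p under 0.05, 12 of 14 B cell and 10 of 13 T cell markers were lower in double-deficient aorta, and 0 passed the adjusted threshold. Both lists were highest in ApoE-deficient replicates 1 and 2, where the oxidative phosphorylation genes were low, while replicate 4 had B cell markers at 1.37 and these genes at 0.05. Smooth muscle markers were higher in double-deficient aorta for 10 of 11, with medians of 0.27, 0.48, 0.05 and -0.03 against -0.13, -0.32, -0.05 and -0.01. The part of lymphocytes and of smooth muscle in the aorta values was not tested. In CD115+ cells the medians were 0.08, -0.11 and -0.12 in the double-deficient preparations and -0.03, 0.06 and 0.05 in the ApoE-deficient replicates 1, 3 and 4. The number of genes above 0 was 82, 11 and 10 in the double-deficient and 28, 73 and 75 in the ApoE-deficient preparations, so that double-deficient replicate 1 was the highest array and the other two the lowest.

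**Figure D1:**
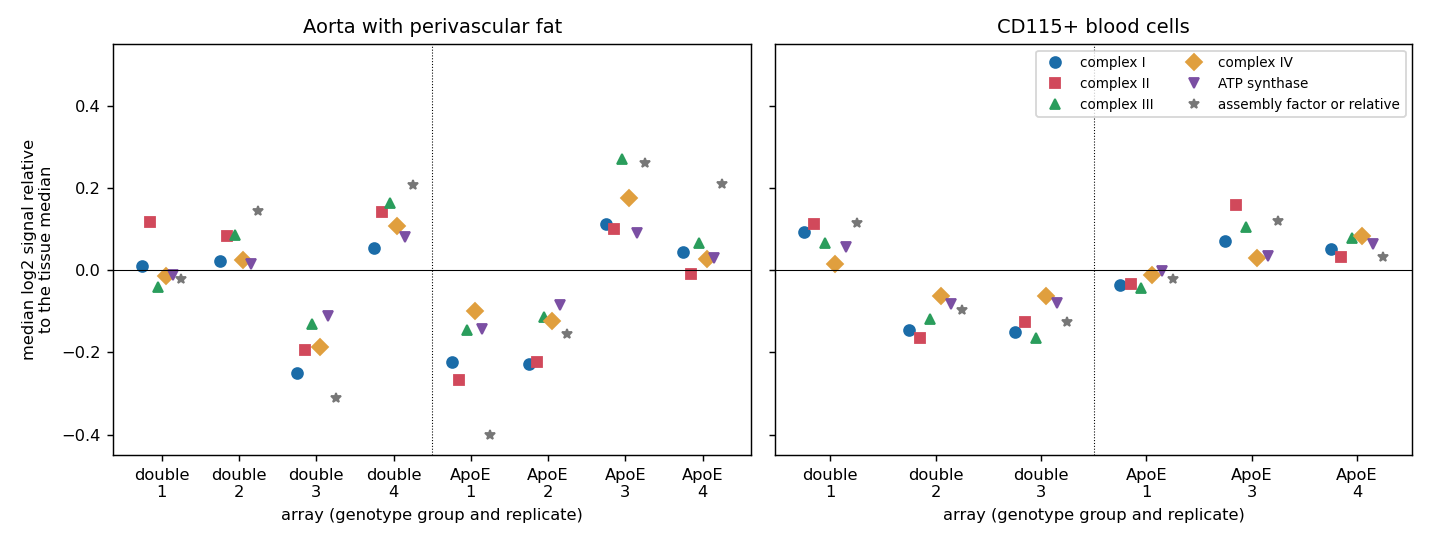
Median log2 signal relative to the tissue median (y axis) over the genes of each complex and over the assembly factors, for every array (x axis; double, double-deficient; ApoE, ApoE-deficient); each point is a median over genes. The complexes share their low arrays (aorta double 3, ApoE 1 and ApoE 2; CD115+ double 2 and 3), and the genotypes overlap in both tissues.

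With double-deficient CD115+ replicate 1 left out, 88 of 93 genes were lower, the median difference was -0.15 and 25 genes had an unadjusted limma p under 0.05, all lower (26.9%, against 8.89% of all genes). This is the array where these same genes stood highest as a set, so leaving it out had to lower most double-deficient means. Genes that rise and fall together by array are not separate results. In that fit 0 passed the adjusted threshold, the smallest limma adjusted p being 0.0914 for Ndufaf1 (difference -0.46, SE 0.07). Leaving out any other CD115+ array gave 1 or 2 such genes. Medians of the adipocyte markers were likewise highest in double-deficient replicate 1 and lowest in replicates 2 and 3, with double-deficient values of 0.26, -0.33 and -0.18 against -0.08, 0.11 and 0.07, and 11 of 11 were lower in the former. Smooth muscle markers stood at 0.26, -0.30 and -0.25 against -0.04, 0.12 and 0.04. B cell markers ran the other way, at -0.28, 1.82 and 0.97 against 0.28, -0.73 and -0.74, with 14 of 14 higher and 0 of 14 at or above 8 log2 units. Blood monocyte markers stood at -0.51, -0.15 and 0.90 against 0.33, -0.07 and 0.03, with 7 of 12 higher. Macrophage markers stood at 0.04, -0.25 and -0.22 against 0.05, 0.08 and 0.06, with 10 of 12 lower. Platelet markers stood at -0.24, 1.53 and -0.44 against 0.30, 0.22 and -0.24. Neutrophil markers stood at -0.23, 1.24 and -0.18 against 0.71, 0.00 and -0.11. The part of these cell types in the oxidative phosphorylation values was not tested.

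**Figure D2:**
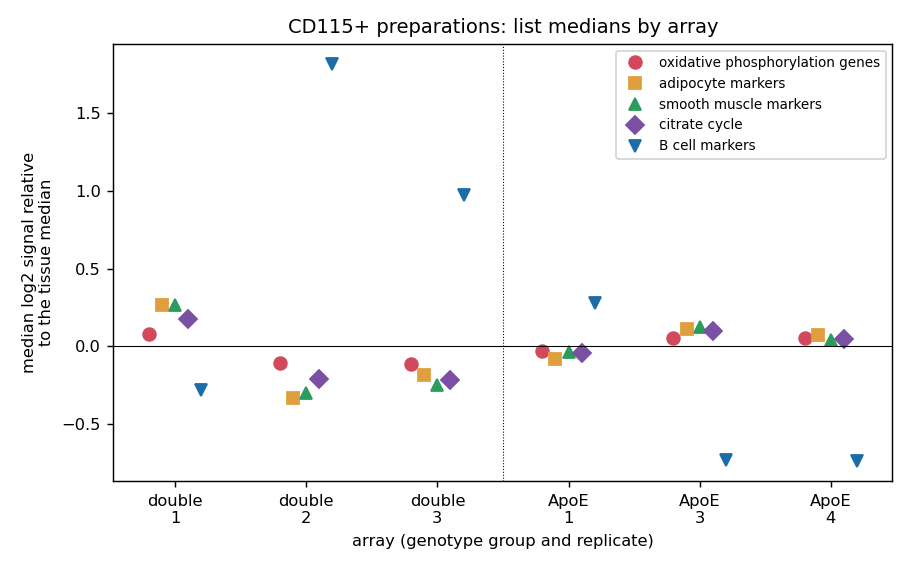
Median log2 signal relative to the tissue median (y axis) over the 93 oxidative phosphorylation genes, the adipocyte, smooth muscle and B cell markers and the citrate cycle genes, in each CD115+ preparation (x axis; double, double-deficient; ApoE, ApoE-deficient). Oxidative phosphorylation, adipocyte, smooth muscle and citrate cycle genes are high in double 1 and low in double 2 and 3, where B cell markers are at 1.82 and 0.97. The citrate cycle list also holds the pyruvate dehydrogenase genes Pdha1, Pdhb and Dlat.

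Complex I is the entry point for electrons from NADH. Of the 34 genes counted with it, 21 were higher and 13 lower in double-deficient aorta (median difference 0.03). The 34 include Ndufa4 and Ndufa4l2, placed there by name. In CD115+ cells 33 of 34 were lower (median -0.09), the exception being Ndufs3 (0.01, SE 0.06). Ndufs1, which carries iron-sulphur clusters of the electron path, stood at -0.02, 0.13, -0.04 and 0.23 in double-deficient and at -0.45, -0.41, 0.11 and 0.02 in ApoE-deficient aorta. ApoE-deficient replicates 1 and 2 were low and the other arrays overlapped (difference 0.26, SE 0.15). Ndufv1, which binds NADH and its flavin cofactor, showed the same low pair at -0.30 and -0.51 (difference 0.19, SE 0.15). For Ndufs1, a left-out probe set also carried the symbol Ino80dos, so the gene it measured is not known. In aorta that probe set stood at 0.14, 0.15, 0.47 and 0.19 against -0.14, -0.24, -0.60 and -0.36 (difference 0.57). Its difference in CD115+ cells was 0.04. Ndufb11, an accessory subunit of the membrane arm, varied widely, from -0.91 in double-deficient replicate 3 to 0.72 in ApoE-deficient replicate 3 (difference -0.34, SE 0.33).

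In CD115+ cells Ndufa7, an accessory subunit, stood at 0.01, -0.18 and -0.21 in the double-deficient group against 0.11, 0.19 and -0.01 in the controls. Its groups overlapped through double-deficient replicate 1 (difference -0.23, SE 0.09, limma adjusted p 0.976, exact permutation p = 0.2). Ndufv1 stood at 0.14, -0.39 and -0.21 against 0.07, 0.04 and -0.04 (difference -0.18, SE 0.14). Ndufb8, another membrane-arm subunit, stood at 0.01, -0.07 and -0.15 against -0.01, 0.07 and 0.24 (difference -0.17, SE 0.08). In each of these genes double-deficient replicate 1 was the highest of its group.

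Complex II consists of the flavoprotein Sdha, the iron-sulphur protein Sdhb and the membrane anchors Sdhc and Sdhd. Sdha stood at 0.13, 0.07, -0.04 and 0.16 in double-deficient and at -0.41, -0.30, 0.03 and -0.03 in ApoE-deficient aorta. Both low values were again ApoE-deficient replicates 1 and 2, and the groups overlapped narrowly (difference 0.26, SE 0.11, limma adjusted p 0.645). Sdhb differed by 0.13 (SE 0.11) and Sdhc by 0.07 (SE 0.15) in aorta. Sdhd stood at -0.05, 0.10, -1.02 and 0.05 against -0.32, -0.15, 0.10 and 0.30 (difference -0.21, SE 0.26), with 1 array far below the rest. All 4 subunits were lower in double-deficient CD115+ cells, Sdhd by most (-0.26, SE 0.22) and Sdhb by least (-0.04, SE 0.09).

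Complex III had 3 of 7 subunits higher in double-deficient aorta and 7 of 7 lower in CD115+ cells. Uqcrc1, one of the large core proteins on the matrix side, stood at -0.06, 0.17, 0.05 and 0.18 against -0.46, -0.30, 0.18 and -0.05 in aorta (difference 0.24, SE 0.14). In CD115+ cells Uqcrc1 stood at 0.04, -0.39 and -0.18 against 0.03, 0.00 and 0.00 (difference -0.19, SE 0.11). The aorta groups overlapped, and in CD115+ cells double-deficient replicates 2 and 3 lay below all other arrays while replicate 1 did not. Uqcrh, the hinge protein that helps cytochrome c bind, differed by -0.13 (SE 0.16) in aorta and by -0.10 (SE 0.07) in CD115+ cells. Uqcrc2 and Uqcr11 differed by 0.08 and -0.10 in aorta and by -0.07 and -0.09 in CD115+ cells.

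ATP synthase had 8 of 17 subunits higher in double-deficient aorta and 14 of 17 lower in CD115+ cells (medians -0.01 and -0.08). Atp5a1, the alpha subunit of the catalytic head, stood at -0.02, 0.07, 0.02 and 0.08 against -0.28, -0.28, 0.03 and -0.02 in aorta (difference 0.18, SE 0.09). In CD115+ cells it stood at 0.03, -0.18 and -0.08 against 0.08, -0.03 and 0.04 (difference -0.11, SE 0.07). Its low aortas were those of Sdha and Ndufs1, and the groups overlapped in both tissues. Atp5j2, a subunit of the membrane part, was lower in all 4 double-deficient aortas than in ApoE-deficient replicates 1 to 3, at -0.49, -0.10, -0.14 and 0.09 against 0.24, 0.19, 0.21 and -0.09 (difference -0.29, SE 0.13). Atp5h, a stalk subunit, differed by -0.28 (SE 0.16) in aorta, but its 2 probe sets disagreed, at -0.62 and 0.06.

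**Figure D3:**
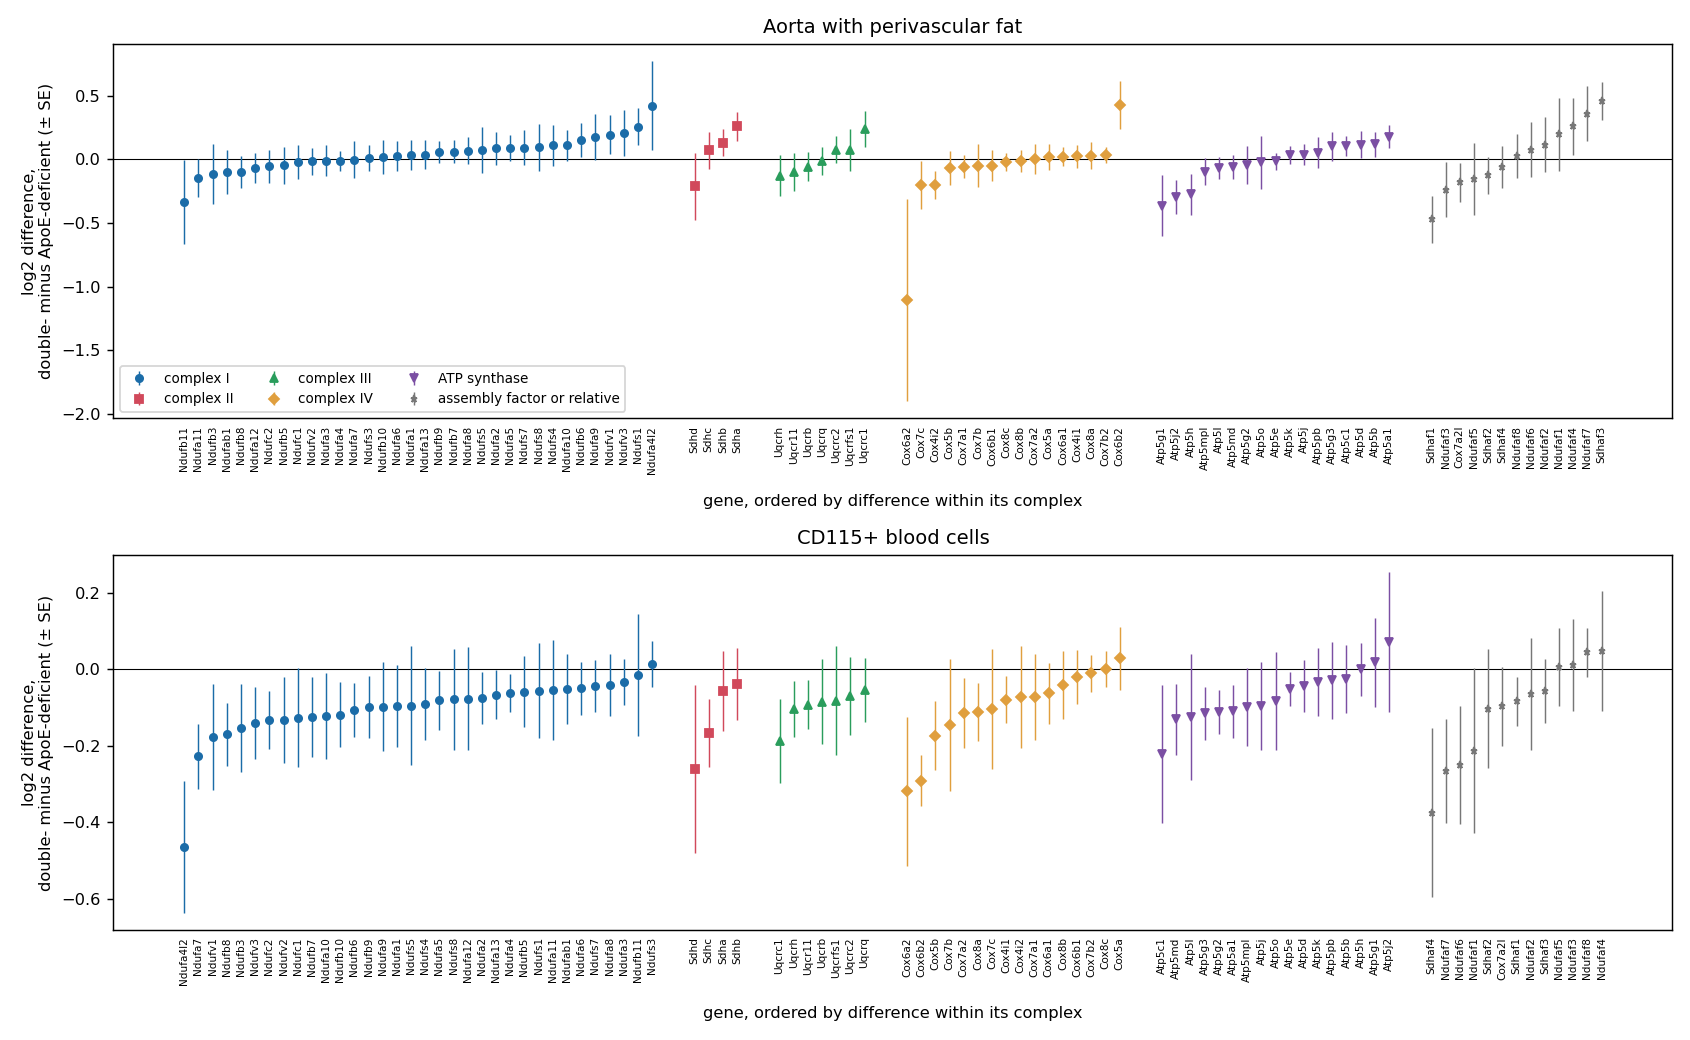
Genotype difference (y axis, log2 units, double-deficient minus ApoE-deficient) with its standard error for 91 genes (pseudogenes not drawn), ordered within each complex (x axis), in aorta and in CD115+ cells; the y scales differ. In aorta the differences lie on both sides of 0, from -1.11 for Cox6a2 to 0.46 for Sdhaf3; in CD115+ cells most lie just below 0.

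A list of subunits picked by hand was set against the other subunits after the values were seen, so no test was made. Further ATP synthase subunits, such as Atp5c1 and Atp5g1 (aorta differences 0.11 and -0.36), were left among the others. These 11 genes (Ndufs1, Ndufs3, Ndufs7, Ndufs8, Ndufv1, Ndufv2, Sdha, Sdhb, Uqcrfs1, Atp5a1 and Atp5b) had a median of 0.03, 0.05, -0.11 and 0.12 in double-deficient aortas and of -0.30, -0.28, 0.11 and 0.02 in ApoE-deficient ones. In ApoE-deficient replicates 1 and 2, 0 of 11 stood above 0; these are the aortas with the highest B and T cell markers. The other 67 subunits had medians of -0.16 and -0.16 in those arrays, and -0.01, 0.03, -0.19 and 0.08 in the double-deficient aortas. As a result 10 of the 11 differences were above 0 in aorta (median 0.12), against 32 of the other 67 (median -0.01). In CD115+ cells the medians were -0.06 and -0.09, with 10 of 11 and 62 of 67 below 0. Of the 11, Ndufs3 binds no cofactor, and the anchors Sdhc and Sdhd, which bind haem, were not among them. Without Ndufs3 and with both anchors, a list also made after the values were seen, 10 of 12 differences were above 0 in aorta (median 0.11) and 12 of 12 below 0 in CD115+ cells (median -0.08).

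Complex IV had 7 of 16 subunits higher in double-deficient aorta and 14 of 16 lower in CD115+ cells. Several of its subunits occur as tissue isoforms. Cox6a2, the isoform of heart and skeletal muscle, stood at -2.38, -1.31, -0.39 and 0.70 in double-deficient and at -1.56, 1.07, 1.15 and 0.39 in ApoE-deficient aorta. Its difference of -1.11 (SE 0.80, limma adjusted p 0.801) lay within that spread, and its SD over the 8 arrays, 1.33, was the largest of the 93 genes. Cox6a1, the form found in most tissues, stayed between -0.16 and 0.06 over the same arrays (difference 0.02, SE 0.08).

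Skeletal muscle markers had medians of -1.27, -1.09, -0.98 and 1.28 in double-deficient and of -1.42, 1.77, 1.98 and 0.63 in ApoE-deficient aortas. The 4 aortas with Cox6a2 above 0 were the 4 with the muscle markers above 0. All 15 of these markers were lower in the double-deficient group, from -1.96 (Mylpf, a myosin light chain) to -0.24 (Casq1, a calcium store protein), and 3 of 15 were at or above 8 log2 units. Cardiac muscle markers lay on the other side, with 9 of 10 higher in the double-deficient group (median difference 0.33). Their double-deficient medians of -1.12, 0.06, 1.17 and 0.32 stood against -0.33, -0.03, 0.02 and -0.06, highest in double-deficient replicate 3, where Cox6a2 was at -0.39. The part of muscle tissue in the Cox6a2 values was not tested. Cox7a1 and Cox8b, the isoforms of muscle and brown fat, spread far less, between -0.21 and 0.16 and between -0.17 and 0.19. Their differences in aorta were -0.06 (SE 0.09) and -0.01 (SE 0.09), beside 0.00 (SE 0.12) for Cox7a2 and 0.03 (SE 0.10) for Cox8a, the forms of most tissues. Ucp1, which uncouples respiration in brown fat, differed by -0.06 (SE 0.12) and the median of the brown adipocyte markers, a list that holds Cox7a1 and Cox8b, by 0.06.

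**Figure D4:**
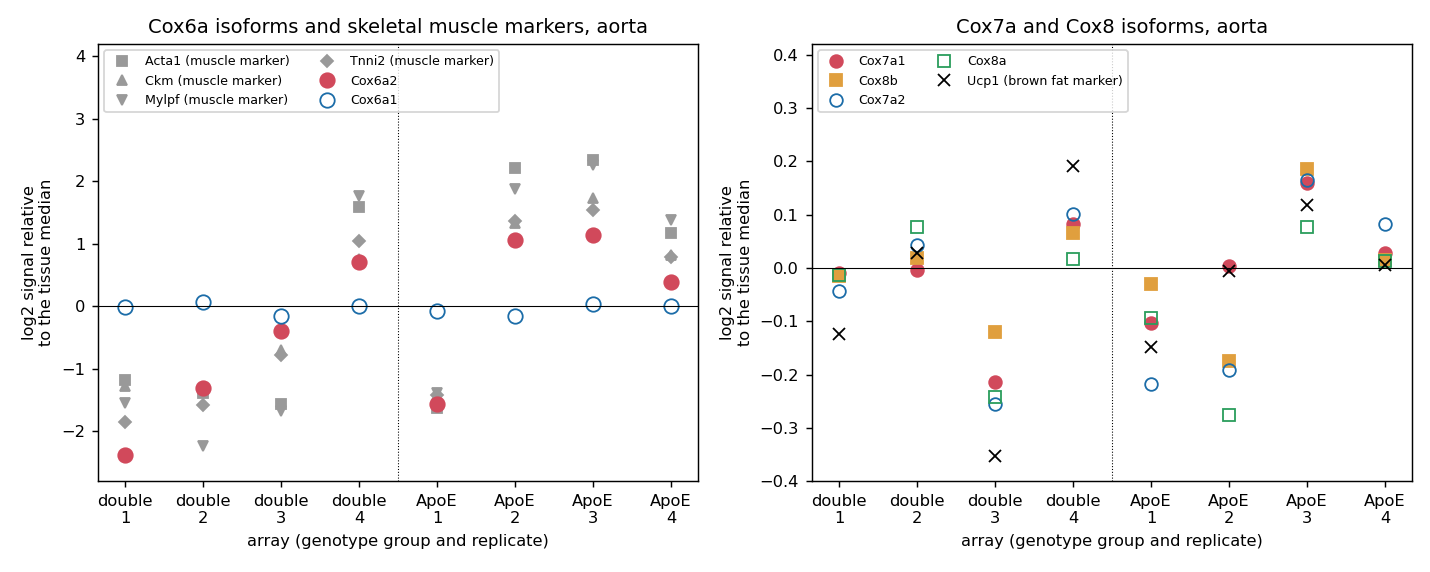
Log2 signal relative to the tissue median (y axis) in each aorta (x axis; double, double-deficient; ApoE, ApoE-deficient): left, Cox6a2, Cox6a1 and 4 skeletal muscle markers; right, Cox7a1, Cox7a2, Cox8a, Cox8b and the brown fat marker Ucp1. Cox6a2 runs from -2.38 to 1.15 and is above 0 in the same 4 aortas as the muscle markers, while Cox6a1 stays near 0.

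Cox6b2, the testis form of a subunit that faces the intermembrane space, had the smallest p of the CD115+ comparison among the 93 genes. In the double-deficient preparations it stood at -0.19, -0.07 and -0.25 against 0.12, 0.19 and 0.07 in the ApoE-deficient ones, so the groups did not overlap, as for 5.23% of all genes in that direction. The difference was -0.29 (SE 0.07) with an unadjusted limma p of 0.0053, an adjusted p of 0.976 and an exact two-sided permutation p of 0.1, the smallest that 3 against 3 samples allow. Cox6b2 did not show the sign of a signal at or above 8 log2 units in CD115+ cells, so it cannot be told from background there. In aorta Cox6b2 stood at 0.31, -0.05, 0.13 and 0.23 against -0.84, -0.08, 0.05 and -0.22 (difference 0.43, SE 0.19). Cox6b1, its counterpart in most tissues, differed by -0.05 (SE 0.12) in aorta and by -0.02 (SE 0.07) in CD115+ cells. Cox4i2, an isoform of lung and other oxygen-sensing tissue, differed by -0.20 (SE 0.11) in aorta and Cox4i1 by 0.02 (SE 0.09). The testis isoforms Cox7b2 and Cox8c differed by at most 0.03 in size in either tissue.

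Ndufa4l2, a relative of the complex IV subunit Ndufa4 that is known to be induced by low oxygen, varied most widely among the Nduf genes. In aorta it stood at 0.07, 1.01, -0.74 and 0.68 against -0.30, -0.37, 0.02 and -0.02 (difference 0.42, SE 0.35). In CD115+ cells it stood at 0.01, -0.55 and -0.17 against 0.34, -0.01 and 0.34 (difference -0.46, SE 0.17, exact permutation p = 0.2). The groups overlapped in both tissues. Ndufa4l2 did not show the sign of a signal at or above 8 log2 units in either tissue, so it cannot be told from background. Ndufa4 itself, counted with complex I by its name, differed by -0.01 (SE 0.08) and -0.06 (SE 0.05). The genes Atp5g1, Atp5g2 and Atp5g3 encode the same subunit c of the membrane ring and differed by -0.36 (SE 0.24), -0.04 (SE 0.15) and 0.10 (SE 0.11) in aorta. For Atp5g1 a single array, ApoE-deficient replicate 1 at 0.98, lay far above the others, which ran from -0.31 to 0.20.

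Assembly factors help build the complexes but are not part of them. In the aorta the 2 genes with an unadjusted limma p under 0.05 were both of this class, 1 higher and 1 lower. Sdhaf3, which helps insert the iron-sulphur clusters of Sdhb, stood at 0.15, 0.16, -0.01 and 0.39 in double-deficient and at -0.65, -0.30, -0.20 and 0.01 in ApoE-deficient aorta (difference 0.46, SE 0.15, limma p 0.015, adjusted 0.535, exact permutation p = 0.0571). Sdhaf1, with a like role, stood at -0.01, -0.10, -0.72 and -0.07 against 0.04, 0.10, 0.57 and 0.26 (difference -0.47, SE 0.18, limma p 0.034, adjusted 0.607). Its groups did not overlap, as for 2.11% of all genes in that direction, and the exact permutation p was 0.0286, the smallest that 4 against 4 samples allow. Both Sdhaf1 probe sets had a difference below 0, at -0.34 and -0.60. The Sdhaf3 groups overlapped only through double-deficient replicate 3 at -0.01 and ApoE-deficient replicate 4 at 0.01. Neither Sdhaf3 nor Sdhaf1 showed the sign of a signal at or above 8 log2 units in aorta, so neither can be told from background.

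In CD115+ cells 9 of the 13 assembly factors and relatives were lower and 4 were higher. Sdhaf4, which protects free Sdha, stood at 0.19, -0.51 and -0.45 in the double-deficient group against -0.13, 0.35 and 0.13 in the controls (difference -0.37, SE 0.22). Ndufaf7, a methyltransferase acting on complex I, stood at 0.03, -0.44 and -0.13 against 0.08, 0.21 and -0.03 (difference -0.27, SE 0.14). Its difference in aorta was 0.36 (SE 0.22), where ApoE-deficient replicates 1 and 2 stood at -0.46 and -0.77. Ndufaf1 and Ndufaf6 differed by -0.21 (SE 0.21) and -0.25 (SE 0.15) in CD115+ cells.

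The genotype differences of both tissues were then compared. Of the 93 genes 46 were higher in double-deficient aorta and lower in double-deficient CD115+ cells, 36 were lower in both, 7 were lower in aorta and higher in CD115+ cells, and 4 were higher in both. In 1 fit over all 4 groups 0 of 93 genes had a difference of the effects past the adjusted threshold (smallest limma adjusted p 0.609), as for all genes (0%). Unadjusted, limma gave 3 genes a p under 0.05, all above 0, against 6.9% of all genes in either direction and 3.41% above 0. They were Cox6b2 (0.72, SE 0.24), Sdhaf3 (0.51, SE 0.19) and Atp5a1 (0.29, SE 0.12), each with the aorta difference above the CD115+ one. The 93 differences of the effects had a median of 0.09 (all genes 0.02), and 71 lay above 0 (76.3%, against 54.7% of all genes).

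**Figure D5:**
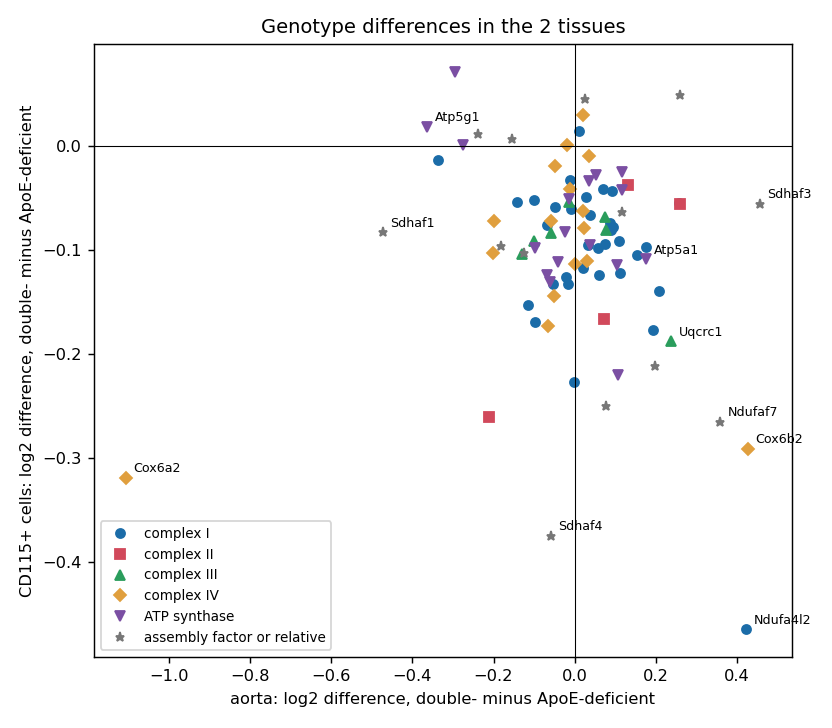
Genotype difference in aorta (x axis) against that in CD115+ cells (y axis), in log2 units, double-deficient minus ApoE-deficient, each point 1 of 91 genes (pseudogenes not drawn). Most points lie below 0 on the y axis and on both sides of 0 on the x axis; Cox6b2 (0.43 and -0.29) and Ndufa4l2 (0.42 and -0.46) lie far to the lower right.

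Neighbouring pathways were read from lists chosen with the set. The citrate cycle list also held Pdha1, Pdhb and Dlat of the pyruvate dehydrogenase complex, which feeds the cycle. Of its 15 genes measured, 14 were higher in double-deficient aorta (median difference 0.21), and 0 passed the adjusted threshold. Unadjusted, 2 had a limma p under 0.05, Ogdh (0.30, SE 0.12) of the oxoglutarate dehydrogenase complex and Fh1 (0.30, SE 0.13), the fumarase. All 15 were lower in CD115+ cells (median -0.11), 0 of them past either threshold. Their array medians in aorta were 0.01, 0.11, -0.07 and 0.15 against -0.35, -0.35, 0.11 and -0.01, with ApoE-deficient replicates 1 and 2 low, the aortas where B cell markers stood at 2.20 and 2.29. A list of 33 further genes, mostly other assembly factors, also held cytochrome c (Cycs), the complex III subunit Cyc1 and the ATP synthase inhibitor Atpif1. Of these 33 genes 23 were higher in aorta (median 0.06) and 30 lower in CD115+ cells (median -0.15). Sco1, a copper chaperone of complex IV, differed by 0.53 (SE 0.15) in aorta and Coa6, another, by -0.59 (SE 0.18). Of 46 mitochondrial ribosome genes 25 were higher in aorta (median 0.03) and 38 lower in CD115+ cells (median -0.08).

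The 10 subunits measured that are encoded in mitochondrial DNA shared the array pattern of the nuclear ones only in part. In CD115+ cells double-deficient medians of 0.02, 0.03 and -0.02 stood against -0.14, -0.02 and 0.21, and 4 of 10 were lower. In aorta the medians were -0.08, -0.06, 0.02 and 0.05 against -0.01, -0.08, 0.16 and 0.01, and 9 of 10 were lower, by at most 0.07. As for the nuclear genes, ApoE-deficient replicate 3 was the highest aorta and ApoE-deficient replicate 2 was low. By contrast double-deficient replicate 3, where 85 of the 93 nuclear genes stood below 0, had 10 of 10 mitochondrial genes above 0. Of 15 regulators of mitochondrial biogenesis, 10 were higher in double-deficient aorta (median 0.08). Ppargc1a, a coactivator that raises mitochondrial gene expression in brown fat and muscle, differed by 0.62 (SE 0.30, limma adjusted p 0.664) and Tfam, the mitochondrial transcription factor, by -0.45 (SE 0.29). Glycolysis genes had a median of 0.08 in aorta, where Pgam2, the muscle phosphoglycerate mutase, differed by -1.21 (SE 0.68), and of -0.13 in CD115+ cells.

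The factors NRF-1 and the ETS family (the NRF-2 or GABP type) are known to act at many nuclear genes of respiration, so the 250 bases before each start site were searched for both. RefSeq promoters (GRCm38.p6) were found for 76 of the 93 genes. The NRF-1 motif (GCGCA, any 1 base, then GCGC, on either strand) lay in 12 of them (15.8%), against 4.23% of 27025 genes, and the ETS motif CCGGAAG, on either strand, in 16 (21.1%), against 7.83%. Both motifs occurred in 3 (Atp5h, Cox6a1 and Sdhd), and a match of one can share at most 1 base with a match of the other. The 25 genes with either motif and the 51 with neither had median differences of 0.02 and 0.00 in aorta and of -0.08 and -0.08 in CD115+ cells. Sequences follow for 6 genes that the results turn on, 5′ to 3′ on the strand of the gene, with matches in capitals. Sdha (chr13:74350241-74350490, minus strand) has 3 NRF-1 matches, which start 98, 55 and 10 bases before the start site. Cox6a1 (chr5:115348959-115349208, minus strand) has 2 NRF-1 matches and 1 ETS match, and Sdhd (chr9:50603850-50604099, minus strand) has 1 of each. Sdhaf3 (chr6:6955768-6956017, plus strand) has 1 ETS match. Cox6b2 (chr7:4753095-4753344, minus strand) and the brown fat and muscle isoform Cox8b (chr7:140900447-140900696, minus strand) have 0 matches in this window.
Sdha: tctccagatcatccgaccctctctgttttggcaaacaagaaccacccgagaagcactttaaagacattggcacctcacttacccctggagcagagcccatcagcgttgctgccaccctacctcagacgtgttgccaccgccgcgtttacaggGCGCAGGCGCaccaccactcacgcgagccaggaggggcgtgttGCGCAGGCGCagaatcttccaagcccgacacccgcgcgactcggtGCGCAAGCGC
Cox6a1: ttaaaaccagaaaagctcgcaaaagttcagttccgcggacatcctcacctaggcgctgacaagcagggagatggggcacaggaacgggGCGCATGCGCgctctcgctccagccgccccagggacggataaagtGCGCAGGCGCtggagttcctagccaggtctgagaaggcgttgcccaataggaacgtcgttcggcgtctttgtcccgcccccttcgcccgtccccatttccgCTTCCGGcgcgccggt
Sdhd: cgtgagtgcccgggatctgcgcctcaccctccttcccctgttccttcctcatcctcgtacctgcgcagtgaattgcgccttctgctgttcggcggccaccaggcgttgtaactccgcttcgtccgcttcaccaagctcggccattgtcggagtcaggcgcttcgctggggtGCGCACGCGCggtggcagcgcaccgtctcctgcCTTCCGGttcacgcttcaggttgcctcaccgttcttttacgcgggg
Sdhaf3: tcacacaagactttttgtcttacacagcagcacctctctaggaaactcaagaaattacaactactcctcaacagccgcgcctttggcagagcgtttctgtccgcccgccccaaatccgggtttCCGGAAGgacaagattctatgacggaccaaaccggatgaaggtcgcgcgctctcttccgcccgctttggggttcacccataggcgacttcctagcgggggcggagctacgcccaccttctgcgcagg
Cox6b2: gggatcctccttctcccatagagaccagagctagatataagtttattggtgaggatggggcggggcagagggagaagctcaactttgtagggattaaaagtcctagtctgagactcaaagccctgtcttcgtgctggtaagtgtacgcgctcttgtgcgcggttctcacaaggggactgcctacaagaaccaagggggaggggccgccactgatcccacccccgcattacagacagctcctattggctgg
Cox8b: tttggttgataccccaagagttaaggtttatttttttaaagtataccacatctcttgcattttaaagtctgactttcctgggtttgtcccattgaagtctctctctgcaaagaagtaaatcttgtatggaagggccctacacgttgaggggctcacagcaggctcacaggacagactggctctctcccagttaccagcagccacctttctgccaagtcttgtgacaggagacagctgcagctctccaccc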

How the data were processed

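RNA was extracted with a column kit, and 1 ng was amplified with a whole-transcript system and biotin-labelled, as the labels' protocols state (per the labels). The authors deposited log2 signals for 33793 probe sets on 14 arrays; no source used here gives the log base, the normalization or the probe summary, and log2 was assumed from the range of the values. Within each tissue every probe set had a median of 0 (within 5e-07) in the deposited values, so levels and a filter on low signal could not be used. The platform annotation gave 23521 probe sets 1 symbol, 1814 several and 8458 none. Probe sets of a gene were averaged, and 22180 genes were tested with limma 3.58.1 in R 4.3.3 (lmFit, eBayes, two-sided, Benjamini-Hochberg threshold 0.05), within each tissue and, for the difference of effects, over all 4 groups. Single genes also had exact two-sided permutation tests. A signal at or above 8 was read from the rounding step of the stored numbers. The number of arrays limits the precision. Genes with values were named by a rule: the members of smallest p per complex and tissue, of largest difference or spread, and all tissue isoforms. The gene set, lists and tests were chosen with earlier results of these data known. Alternatives covered other fits, normalizations, probe-set choice, subsets of genes and leaving out each array.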

Additional observations from a re-analysis of the deposited data

Results flagged for a closer look

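Values were checked for 1 array standing apart from the other 3 of its aorta group, in 102 groups of values. A gap of this size arises by chance in about 1 group in 20, and 9 were found. Double-deficient replicate 3 stood below the rest for Atp5g2 (-0.45), Ndufb8 (-0.45), Sdhaf1 (-0.72), Sdhc (-0.28), Sdhd (-1.02) and Uqcrh (-0.50), and for the median over complex I (-0.25). ApoE-deficient replicate 4 stood below the rest for Atp5j2 (-0.094), and ApoE-deficient replicate 3 above the rest for Sdhc (0.31). The CD115+ groups, of 3 preparations each, were not checked in this way.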

How the results depend on the processing

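The count of 0 genes past the adjusted limma threshold held in every alternative run, with smallest adjusted p-values from 0.223 to 0.742 in aorta, from 0.0914 to 1.00 in CD115+ cells and from 0.197 to 1 for the difference between tissues. Counts of genes with an unadjusted limma p under 0.05 moved more. The share over all genes is given only for the main fit and the fit without double-deficient CD115+ replicate 1. Counts under the other fits cannot be set against such a share, so they are not read as results about these genes. In aorta the count of 2 became 5 with all 4 groups in 1 fit and 4 with array weights or quantile normalization. It became 3 with array median centring or the probe set of largest SD, 1 among genes of high signal and 0 among the 78 subunits. In CD115+ cells the count of 3 became 0 with all 4 groups in 1 fit, 8 with array weights and 0 among genes of high signal. For the difference between tissues the count of 3 became 11 with array weights and 6 with array weights by tissue. It became 4 with the probe set of largest SD, 2 among the 78 subunits and 0 among genes of high signal. Leaving out each array in turn gave 2 to 7 in aorta, 1 to 25 in CD115+ cells and 1 to 8 for the difference. The median difference ran from -0.03 (without ApoE-deficient replicate 2) to 0.07 (without double-deficient replicate 3) in aorta, so its sign depends on single arrays, from -0.15 to -0.05 in CD115+ cells and from 0.05 to 0.16 for the difference. In aorta 37 to 72 of the 93 genes were above 0 in these fits, and in CD115+ cells 69 to 88 were below 0. Same-numbered arrays did not deviate together (r of 0.17, -0.15, -0.14 and 0.06 in aorta, -0.47 and -0.29 in CD115+ cells). So few pairs cannot show whether the numbers pair samples. With the replicate number as a block the counts were 1 in aorta, 1 in CD115+ cells and 0 for the difference. The median in CD115+ cells was then -0.04 and 65 of 93 genes were below 0. Only CD115+ replicates 1 and 3 exist in both genotypes, so these CD115+ values rest on those alone. Of the genes named, 1346 alternative values moved by less than the largest SD within a group and 2 by more. Leaving out 1 array, or changing only the variance estimate, cannot move a difference that far. These counts are therefore no measure of robustness. Centred values hide the signal over background, so a gene without the sign of a signal at or above 8 cannot be told from background.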
